A study of Mus musculus with 2 samples.

Results

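The Dlk1-Meg3 domain is a cluster of imprinted genes on mouse chromosome 12, and 7 of its genes were described here in the embryonic forebrain. Dlk1, Meg3, Rian, Mirg, Rtl1, Dio3 and Begain were taken by name, a rule that uses no measured value, and all 7 were found among the 42462 genes that could be named. Their 58 transcript models were taken from 101510 named transcripts. The study measured total RNA by RNA sequencing in the forebrain of mouse embryos of strain B6NCrl, a C57BL/6 substrain, at embryonic day 14.5. It has 1 group of 2 samples, which the labels call biological replicates 1 and 2, with no treatment and no altered allele. Each sample was a single forebrain, and the forebrains were collected on different days. The labels also give both samples the same donor entry and a pooled sex, although each was a single forebrain, and they are treated here as separate embryos. With 1 group there is no comparison between conditions, and with 2 samples no test could pass a threshold, so levels, their spread and the differences between the embryos are descriptions.

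In an imprinted domain, a gene is expressed mainly from the copy inherited from one parent. Here the maternal copy gives the long non-coding RNAs Meg3, Rian and Mirg, which lie in the same orientation and carry small nucleolar RNAs (snoRNAs) and many microRNAs, and the paternal copy gives the protein-coding Dlk1, Rtl1 and Dio3. A methylated control region upstream of Meg3 sets this pattern. Dlk1 encodes a transmembrane protein related to Notch ligands, Rtl1 encodes a protein derived from a retrotransposon gag-pol gene, and Dio3 encodes the deiodinase that inactivates thyroid hormone. Begain, at the edge of the domain, encodes a protein that binds postsynaptic scaffolds. The embryos are of a single strain and the tables do not separate parental copies, so the parental origin of these RNAs was not measured.

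Rtl1 and its microRNAs share the same stretch of DNA on opposite strands. The matched Rtl1 transcript of 6358 bases contained the exact reverse complement of 11 mature microRNAs from 6 hairpins. One arm of each is printed below from RefSeq (GRCm38.p6), 5′ to 3′, with the seed (bases 2 to 8) in capitals, because reads from the antisense host of these microRNAs would fall on Rtl1 if the counting did not use the strand.
mmu-miR-431-5p: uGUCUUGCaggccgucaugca
mmu-miR-433-3p: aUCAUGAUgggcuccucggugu
mmu-miR-127-3p: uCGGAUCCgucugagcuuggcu
mmu-miR-434-3p: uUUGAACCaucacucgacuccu
mmu-miR-432: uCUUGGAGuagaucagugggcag
mmu-miR-136-5p: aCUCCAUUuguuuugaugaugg
The stretch of Rtl1 that pairs without a mismatch to miR-127-3p lies at bases 2642 to 2663 of the transcript.
Rtl1-201: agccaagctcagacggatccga
None of these 6 seeds was shared with another mature microRNA of the domain. The table held 58 hairpins and 114 mature microRNAs between Begain and Dio3, and 9 seeds were each shared by 2 differently named microRNAs, 18 in all. The 114 include miR-3070-5p from both Mir3070a and Mir3070b, and 113 had a distinct sequence.

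Of the 58 hairpins with a sequence in the table, 6 lay whole and in the same orientation inside a matched transcript model of the 7 genes, and 46 lay in none in either orientation. For 3 further microRNA genes, among them Mir1906-1, the table held mature arms only. The hosts were Meg3-209 (Mir770), 3 Mirg models (Mir134 and Mir485), Mirg-201 (Mir377), 5 Mirg models (Mir410) and Rtl1 itself (Mir3071). The mature miR-1906 lay in 5 Meg3 models, the leading Meg3-205 among them, which summed to 239 and 379 TPM in replicates 1 and 2. This arm and one arm for each of 4 of the hairpins are printed with the seed in capitals, since the levels of their host transcripts are given further on.
mmu-miR-1906: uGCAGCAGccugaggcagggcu
mmu-miR-770-5p: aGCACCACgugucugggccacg
mmu-miR-134-5p: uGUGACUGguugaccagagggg
mmu-miR-377-3p: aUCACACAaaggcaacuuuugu
mmu-miR-410-3p: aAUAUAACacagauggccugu
The 5 seeds differ from each other and none is found in a second mature microRNA of the domain. None of the 58 hairpins lay whole inside a Rian model.

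Meg3, a long non-coding RNA, was the most abundant of the 7 genes. Replicate 1 had 420 TPM (a transcript level corrected for length and depth) and replicate 2 had 596 TPM, from 12542.5 and 15653.6 expected counts. The mean was 508 ± 124 TPM (SD, n = 2), which was rank 262 of the 42462 genes and rank 5 of 6853 long non-coding genes. The level was 1.42-fold higher in replicate 2, and the intervals deposited with the TPM, 397 to 424 and 559 to 596, did not overlap. The TPM of replicate 2, 596.27, lay just above its own interval, whose upper bound was 596.004. Among genes of the same type (lincRNA), the nearest in level were Gm26917 (1185 TPM) and Malat1 (1775 TPM) above it, and Pantr1 (436 TPM) and Gm3764 (257 TPM) below it.

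The RefSeq promoter window of Meg3 (GRCm38.p6, chr12:109540746-109541045, plus strand), 250 bases before the start site to 50 after, is printed because 3 Meg3 models that begin in it held 46.5% and 53.1% of the gene's TPM. Capitals mark CCAAT, the cAMP response element TGACGTCA and the TATA box TATAAA, each searched on both strands. TATAAA matches on opposite strands overlap.
Meg3 promoter: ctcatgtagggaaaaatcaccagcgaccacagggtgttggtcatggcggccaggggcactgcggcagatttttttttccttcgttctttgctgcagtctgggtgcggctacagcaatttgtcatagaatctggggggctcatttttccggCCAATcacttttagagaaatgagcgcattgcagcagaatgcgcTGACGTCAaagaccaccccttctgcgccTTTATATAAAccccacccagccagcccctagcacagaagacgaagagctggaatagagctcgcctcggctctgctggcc
TGACGTCA began 57 bases before the start site and TATAAA 25 bases before it. Over all 32851 promoter windows of this length, TGACGTCA was found in 1.79%, TATAAA in 13.6% and CCAAT in 37.4%. A match to these letters is a description of the sequence. A second RefSeq window of Meg3 (chr12:109545148-109545447) held none of the 3 motifs, and the model starting there, Meg3-209, held 1.82% and 2.71% of the TPM.

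Rian, the non-coding RNA that carries most of the domain's box C/D snoRNAs within its span, was the next most abundant. It was at 118 TPM in replicate 1 and 112 TPM in replicate 2 (4040 and 3082 expected counts), a mean of 115 ± 4.06 TPM (SD, n = 2). The deposited intervals, 112 to 125 and 105 to 119 TPM, overlapped. Rian was rank 16 of the long non-coding genes. Among processed transcripts, Snhg5 (116 TPM) and Gm12940 (154 TPM) were the nearest above it, and 2410006H16Rik (99.7 TPM) and Snhg14 (96.8 TPM) the nearest below it. Of these, Snhg14 is the imprinted snoRNA host of the Prader-Willi domain.

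Rian differed from Meg3 in where its leading models began relative to the first RefSeq start site. Its RefSeq window (chr12:109603695-109603994, plus strand) had no CG dinucleotide, against a median of 7 over all windows and 13 in the first Meg3 window, and held none of the 3 motifs. It is printed for that contrast, all in lower case.
Rian promoter: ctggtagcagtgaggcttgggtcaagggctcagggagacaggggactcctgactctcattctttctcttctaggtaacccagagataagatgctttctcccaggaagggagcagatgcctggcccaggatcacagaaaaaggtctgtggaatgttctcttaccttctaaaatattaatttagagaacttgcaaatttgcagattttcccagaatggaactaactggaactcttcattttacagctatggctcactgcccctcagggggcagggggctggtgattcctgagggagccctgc
The 2 models beginning in this window held 0.48% and 0.49% of Rian's TPM. The 3 leading models, Rian-202, Rian-213 and Rian-211, began 42.2, 46.7 and 46.7 kb further downstream. Of the leading Meg3 models, Meg3-205 and Meg3-207 began in the first Meg3 window and Meg3-211 began 5.4 kb downstream. These are annotated starts, and start sites were not measured.

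Mirg, the host of the microRNA cluster at the far end of the non-coding region, was much lower than Meg3 and Rian. It was at 7.00 TPM in replicate 1 and 8.58 TPM in replicate 2 (180 and 164 expected counts), a mean of 7.79 ± 1.12 TPM (SD, n = 2). The intervals of 5.97 to 8.81 and 7.55 to 11.4 TPM overlapped. Fam120aos (7.82 TPM), Ftx (7.85 TPM), Dbpht2 (7.73 TPM) and Gm26848 (7.69 TPM) were the lincRNAs nearest in level.

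Dlk1 was the most abundant of the coding genes of the domain. Replicates 1 and 2 had 52.0 and 49.9 TPM (1443 and 1054 expected counts), with a mean of 51.0 ± 1.56 TPM (SD, n = 2) and overlapping intervals of 47.4 to 55.9 and 44.4 to 53.8 TPM. It was rank 3258 of 21474 protein-coding genes. Tmem106c, Plxna2, Lrrc42 and Cand1 were nearest in level, each between 50.9 and 51.0 TPM.

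Dio3 and Rtl1 were near or below 1 TPM. Dio3 was at 1.08 TPM in replicate 1 and 0.97 TPM in replicate 2, a mean of 1.03 ± 0.0778 TPM (SD, n = 2), from 43 expected counts (exact 95% Poisson interval 31.1 to 57.9) and 32 (21.9 to 45.2). Rtl1 was at 0.31 and 0.50 TPM, a mean of 0.405 ± 0.134 TPM (SD, n = 2), from 44 expected counts (32.0 to 59.1) and 55 (41.4 to 71.6). The intervals deposited for the TPM of each gene overlapped between the embryos. For Rtl1, RNA of the gene and RNA of its antisense microRNA host cannot be told apart, since the strand setting of the counting is not given in the sources used here.

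Begain had 13.6 and 17.2 TPM in replicates 1 and 2 (723 and 665 expected counts), with a mean of 15.4 ± 2.52 TPM (SD, n = 2). Replicate 2 was 1.26-fold higher, and the intervals, 12.3 to 14.5 and 15.3 to 18.3 TPM, did not overlap. Ntrk3, a neurotrophin receptor gene, had nearly the same values in both embryos (13.4 and 17.3 TPM).

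**Figure D1:**
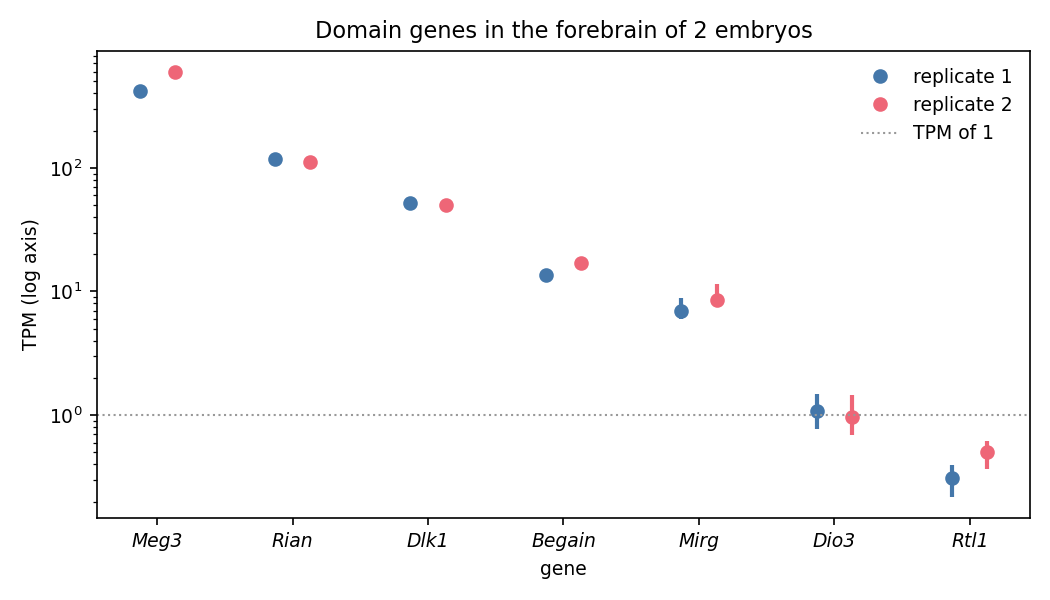
Level of each gene in TPM (log axis) in replicate 1 (blue) and replicate 2 (red), with the deposited TPM interval as a vertical line. Meg3 sits at 420 and 596 TPM at the top, Rtl1 at 0.31 and 0.50 TPM at the bottom, and the dotted line marks 1 TPM.

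The order of the levels was Meg3, Rian, Dlk1, Begain, Mirg, Dio3 and Rtl1 in both embryos. Of the 21 pairs of genes, 21 had deposited intervals that lay apart in the same direction in both libraries. Without division by length, the expected counts separated 20 pairs, and none in the opposite order. The remaining pair was Dio3 and Rtl1, with counts of 43 and 44 in replicate 1 and of 32 and 55 in replicate 2. Rtl1, the longer transcript, thus had the higher count in both, opposite to the TPM order, but with overlapping Poisson intervals. At 1 TPM or more in both libraries, 5 of the 7 genes were detected, beside 33.3% of all named genes. Dio3 was above 1 TPM in replicate 1 and below it in replicate 2, and Rtl1 was below it in both.

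The non-coding genes had a higher summed TPM than the coding genes, with Begain in neither sum. Meg3, Rian and Mirg summed to 545 TPM in replicate 1 and 717 TPM in replicate 2, whereas Dlk1, Rtl1 and Dio3 summed to 53.4 and 51.3 TPM. The log2 ratio of the non-coding to the coding sum was 3.35 and 3.80, a mean of 3.58 ± 0.32 (SD, n = 2). Meg3 alone was 77.1% and 83.1% of the non-coding sum. Without Meg3 the mean log2 ratio was 1.23. All 7 genes together held 0.0612% and 0.0786% of the TPM of the libraries. These are sums over all cells of the tissue, and in bulk samples fewer cells of a type and less RNA per cell cannot be told apart.

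**Figure D2:**
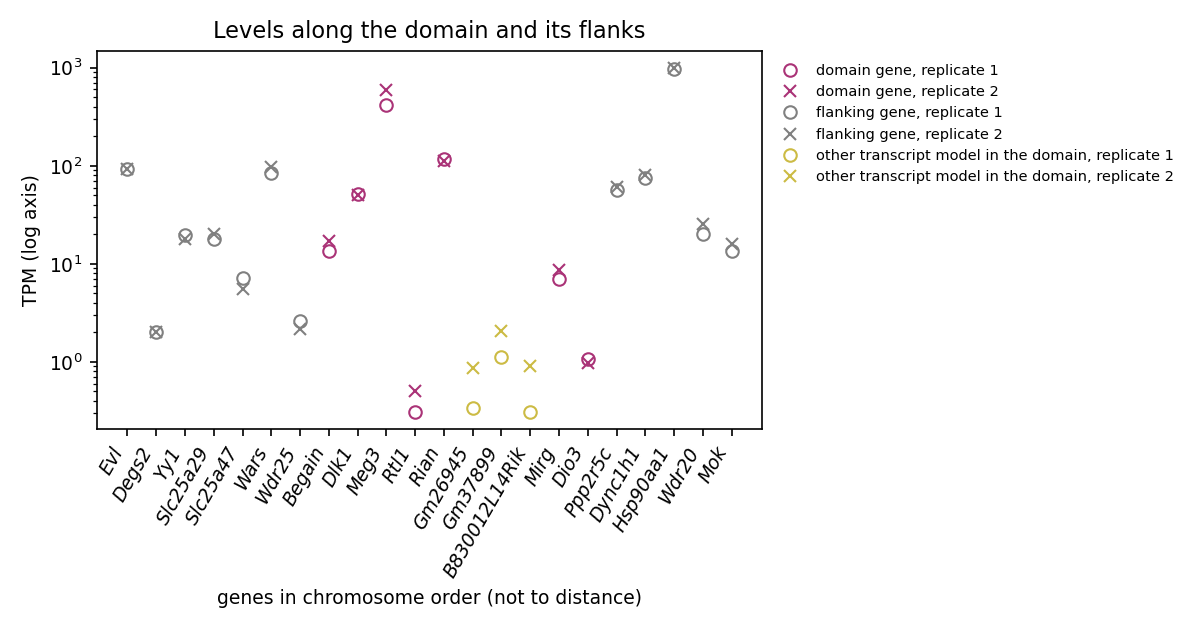
Levels in TPM (log axis) of the 7 genes (purple), of 3 other transcript models inside the domain (yellow) and of 12 flanking genes (grey), in chromosome order but not to distance. Circles are replicate 1 and crosses replicate 2, and the 7 genes span the range from Rtl1 (0.31 and 0.50 TPM) to Meg3 (420 and 596 TPM).

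Levels along the chromosome did not change smoothly. From the start of Begain to the end of Dio3 (GRCm38, chr12:109032187-110281097, 1249 kb), Rtl1 at 0.405 TPM lay between Meg3 at 508 TPM and Rian at 115 TPM. The 12 flanking genes outside the domain were all detected in both libraries, with a median of 20.9 TPM. They ran from Degs2, a sphingolipid desaturase gene (2.01 and 2.00 TPM), to Hsp90aa1, a heat shock protein gene (968 and 994 TPM). Evl (93.3 TPM), Wars (90.1 TPM), Dync1h1 (78.3 TPM) and Ppp2r5c (59.2 TPM) lay between Rian and Dlk1 in level.

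Inside the domain 99 genes were in the tables and 10 of them had a read. Beside the 7 genes these were Gm37899, B830012L14Rik and Gm26945, 3 models of unknown function on the same strand as Rian and Mirg. Gm37899, an 8717-base model between Rian and Mirg, was at 1.12 and 2.09 TPM (220 and 317 expected counts). B830012L14Rik was at 0.31 and 0.91 TPM (31 and 71 expected counts), and Gm26945, inside the span of Rian, at 0.34 and 0.86 TPM (15 and 29 expected counts). All 3 had deposited intervals that lay apart, higher in replicate 2, beside 8.86% of the 3148 genes with a mean of 0.5 to under 2 TPM, a range set after their values were seen.

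The small RNA models of the domain had no reads, and the tables could hardly hold any. Of 61 microRNA models, 51 had an effective length of 0, and so had all 23 snoRNA models, which are 68 to 82 bases long. RNA under 200 bases was not kept for the libraries, per the labels. Their value of 0 says nothing about the small RNAs. By annotation, 13 of the 23 snoRNA models lie within the span of Rian, 7 of them inside an exon of a Rian model and 6 in introns only.

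The listed genes for proteins that process such RNAs were all detected, where 13070 of all 21474 protein-coding genes had a mean of 1 TPM or more. Of 10 microRNA processing genes 10 were at 1 TPM or more in both libraries, led by Prkra and Tarbp2, partners of Dicer (93.3 and 73.7 TPM), and Drosha, the nuclear RNase (49.8 TPM). Of 7 genes for box C/D snoRNA proteins 7 were detected, among them the core proteins Snu13 (271 TPM), Nop56 (216 TPM) and Nop58 (122 TPM). None of these 17 genes met the rule for a difference between the embryos that is given below.

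Each of the 11 Meg3 models is a non-coding transcript, and 5 held 10% or more of the gene's TPM in at least 1 library. Meg3-205, a 1498-base model of 3 exons, held 23.5% in replicate 1 and 31.4% in replicate 2 (98.9 and 187 TPM). Intervals lay apart, higher in replicate 2, for Meg3-205, Meg3-211, Meg3-207, Meg3-202, Meg3-201 and Meg3-209, and overlapped for the other models. The share of such models over all transcripts was not computed, here or for Rian below. Meg3-211 held 21.6% and 20.6%, Meg3-207 held 18.0% and 16.0%, Meg3-203 held 17.5% and 12.1%, and Meg3-202 held 10.4% and 10.5%. No single form thus made up most of Meg3. Meg3-209, the 14548-base model that holds the Mir770 hairpin, had only 1.82% and 2.71% of the TPM (7.67 and 16.2 TPM). Because it is long, the same model took 20.2% of the gene's expected counts in replicate 1 (95% Wilson interval 19.5% to 20.9%) and 26.3% in replicate 2 (25.6% to 27.0%). These intervals cover counting error only, and not the error of dividing reads among models that share exons.

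Rian had 19 models, and 2 of them shared most of its TPM almost equally. Rian-202, with 11 exons, held 35.4% and 34.6%, Rian-213 held 35.0% and 33.6%, and Rian-211 held 10.5% and 9.97%. Of the expected counts Rian-202 took 53.4% and 50.1%. The single-exon model Rian-209, which contains 2 snoRNA models, was at 1.57 and 3.55 TPM with intervals apart. Rian-201, an 8089-base model with 3 snoRNA models in its exons, was at 1.40 and 1.88 TPM, also with intervals apart. Both were higher in replicate 2, while the gene as a whole was at 118 and 112 TPM.

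Mirg had 12 models. Mirg-201, which holds Mir377, was at 31.7% and 33.3% of the TPM, and Mirg-207 at 32.7% and 30.3%. Of the expected counts, which are not divided by length, Mirg-201 took 50.9% and 55.5%, and the shorter Mirg-207 17.3% and 16.6%. Mirg-211, one of the hosts of Mir410, was at 8.94% and 15.5%, and Mirg-209 at 6.76% and 13.6%. The 3 models with Mir134 and Mir485 summed to 0.26 and 0.18 TPM, from 20.8 and 11.7 expected counts. With 180 and 164 expected counts for the whole gene, 6 of the 12 models were listed at 0 in at least 1 library, and the shares of the minor models are not resolved at this depth.

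**Figure D3:**
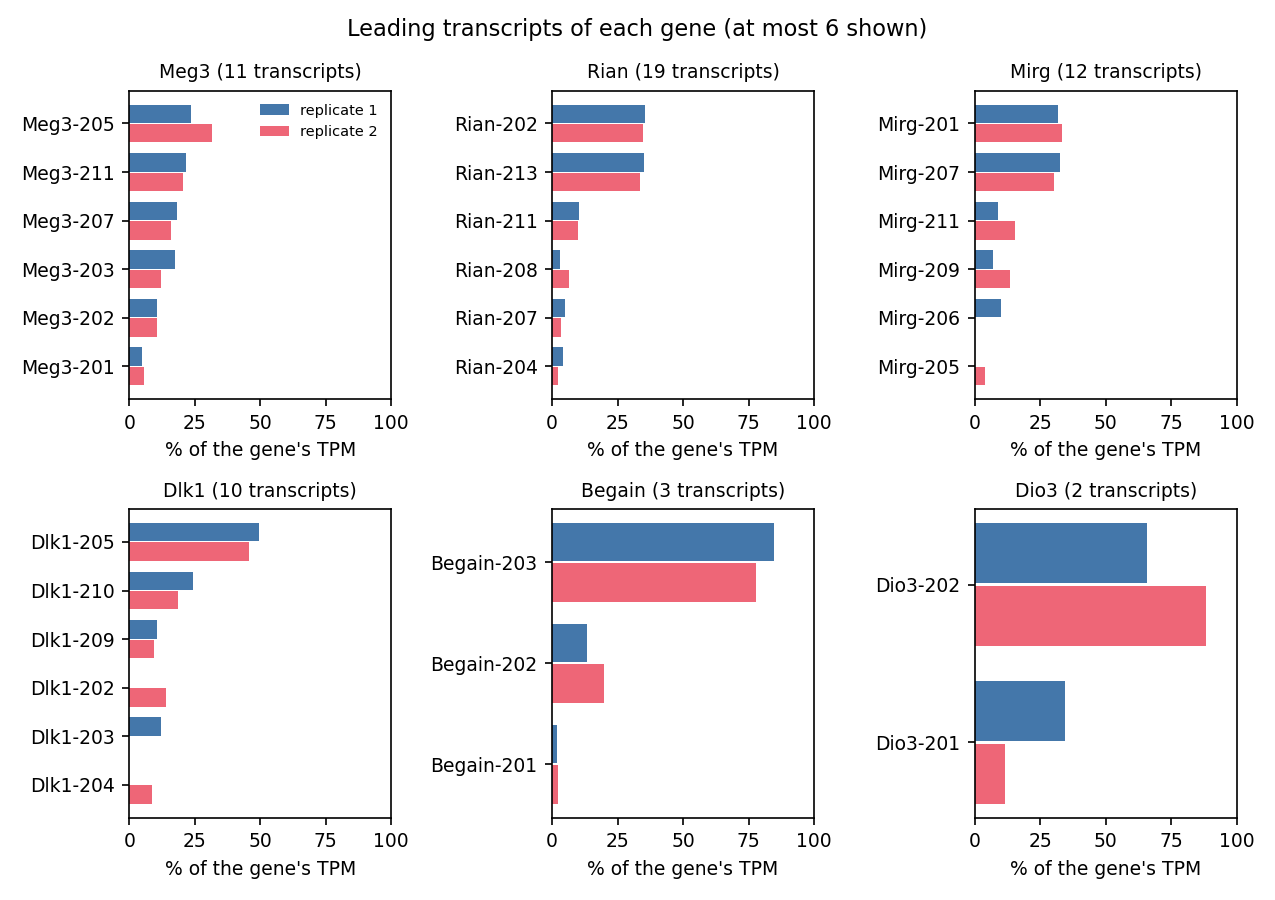
Share of each gene's TPM (percent) held by its leading transcripts, at most 6 a gene, in replicate 1 (blue) and replicate 2 (red). Begain-203 holds 84.9% and 78.0% of Begain, while no Meg3 model passes 31.4%, and Dlk1-202, Dlk1-203 and Dlk1-204 each have a bar in only 1 library.

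Dlk1 had 10 models, of which 2 have the full reading frame of 385 codons. Dlk1-201 was listed at 0 in both libraries, with intervals up to 0.23 and 0.24 TPM. Dlk1-205 led with 49.6% and 45.6% of the TPM (25.8 and 22.7 TPM). Shorter Dlk1 proteins made by alternative splicing lack a stretch next to the membrane at which the full protein is cut and released. The 5 models with a complete but shorter frame of 290 to 334 codons summed to 7.61 and 12.6 TPM, 14.6% and 25.2% of the gene. Which of them took the reads differed between the embryos. Dlk1-203 was at 11.9% and listed at 0 in replicate 2, while Dlk1-202 and Dlk1-204 were listed at 0 in replicate 1 and held 14.1% and 8.49% in replicate 2. The intervals of each of these 3 overlapped, so the swap is within the deposited error. The retained-intron model Dlk1-210, the only model beginning in the RefSeq window of Dlk1 that was not listed at 0, held 24.4% and 18.8%. Dlk1-209 held 10.7% and 9.41%.

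For Begain, the coding model Begain-203 (619 codons) held 84.9% and 78.0% of the TPM and the retained-intron model Begain-202 held 13.2% and 19.8%. For Dio3, Dio3-202, the 304-codon model, held 65.7% and 88.4%, and Dio3-201 held 34.3% and 11.6%, with overlapping intervals. Both Dio3 models begin in its RefSeq window, which had 25 CG dinucleotides, TATAAA and CCAAT. Rtl1 has 1 model of 1744 codons.

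Between the embryos, a gene was called different when its mean TPM was 5 or more, the ratio of TPM + 1 was 2-fold or more and the deposited intervals did not overlap. Of the 10958 genes tested, 16 (0.146%) were higher in replicate 2 and 18 (0.164%) lower, or 3 and 12 on CPM after edgeR's TMM scaling. Of the 7 genes 5 had the required level, and 0 of these 5 were called in either direction. At any fold, intervals lay apart with the higher level in replicate 2 for 2 of the 5, Meg3 and Begain, beside 37.5% of all genes tested. They lay apart with the lower level in replicate 2 for 0 of the 5, beside 8.46%. These shares are too close to the background, over 5 genes, to set the domain apart.

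Meg3 still differed more than the median gene. The log2 ratio of replicate 2 over replicate 1 on TPM + 1 had a median of 0.14 over the 14653 genes with a mean of 1 TPM or more, and of -0.02 after TMM scaling. On the TPM scale the ratio was 0.50 for Meg3, 0.32 for Begain, 0.26 for Mirg and 0.20 for Rtl1, and it was -0.06 for Dlk1, -0.07 for Rian and -0.08 for Dio3. After TMM scaling, with 1 added to CPM, it was 0.52 for Meg3, 0.07 for Begain, 0.05 for Mirg and 0.32 for Rtl1. It was -0.25 for Dlk1, -0.19 for Rian and -0.12 for Dio3. For Rtl1, at 0.31 and 0.50 TPM, an added 1 shrinks the ratio, and weighs differently on TPM than on CPM. With a pseudocount of 0.1 the TPM ratio was 0.55 for Rtl1, with a 95% counting error of 0.57, and 0.50 for Meg3. No sign turned between the scalings, and 3 of the 7 values moved by more than their 95% counting error, those of Rian, Dlk1 and Begain. The non-coding genes thus did not move together, with Meg3 above and Rian below the median gene on both scales.

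**Figure D4:**
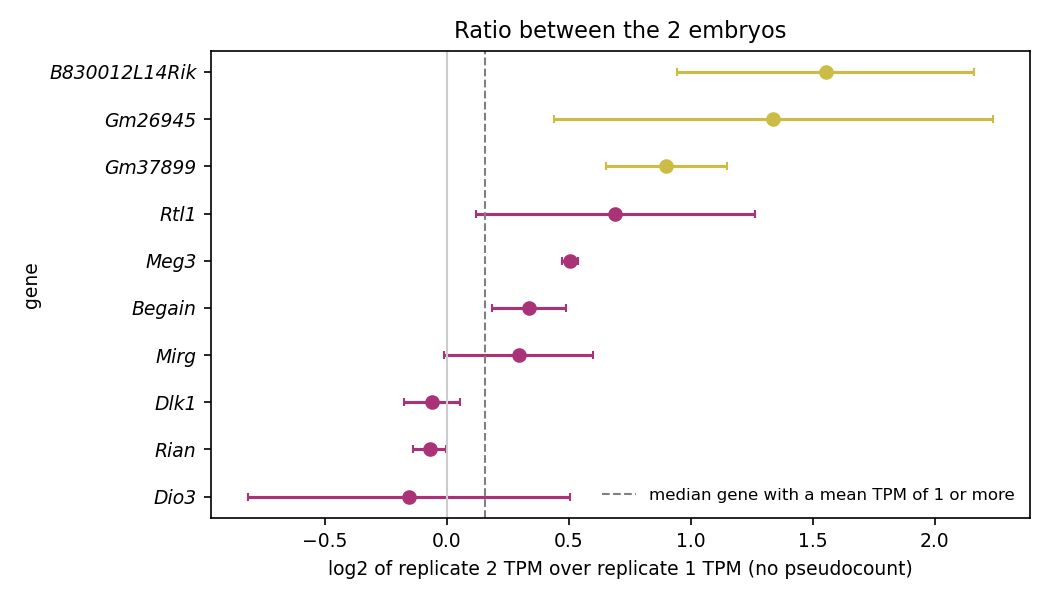
Log2 of the TPM of replicate 2 over replicate 1, without a pseudocount, for the 7 genes (purple) and the 3 other models of the domain (yellow), with bars of the 95% counting error. The dashed line is the median gene at 0.16. Rtl1 (1.61-fold), Meg3 (1.42-fold), Begain (1.26-fold), Mirg (1.23-fold) and all 3 other models lie to its right. The bars of Rtl1 and Mirg cross it.

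Long models of Meg3 and Rian were higher in replicate 2. The models over 3 kb were at 7.67 and 16.5 TPM in sum for Meg3 and at 2.97 and 5.43 TPM for Rian, while those of Mirg were at 0.26 and 0.18 TPM. Models of 3 kb or less were at 413 and 580 TPM for Meg3 and at 115 and 107 TPM for Rian. Over the whole tables, at a mean of 1 TPM or more, retained-intron transcripts had a median log2 ratio of 0.29 (n = 4225). It was 0.14 for protein-coding transcripts (n = 20678) and 0.11 for lincRNA transcripts (n = 406). TEC genes, a GENCODE class of models awaiting evidence that includes Gm37899, had a median of 0.34 (n = 81). The medians of protein-coding and lincRNA genes were 0.15 (n = 13070) and 0.09 (n = 239). Those of processed transcript genes, the type of Rian, and antisense genes were 0.10 (n = 186) and 0.04 (n = 267). These medians were added after the values were seen. The part of such differences between the libraries in the Meg3 and Rian values was not tested.

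Among 37 listed imprinted genes, counting the 7, Meg3 was rank 4, Rian 8, Dlk1 14, Begain 24, Mirg 28, Dio3 32 and Rtl1 35. The genes above Meg3 were Nnat, an endoplasmic reticulum proteolipid gene (5758 ± 205 TPM, SD, n = 2), Ndn, a gene of the Prader-Willi domain (1186 ± 7.98 TPM), and Gnas, the stimulatory G protein alpha gene (858 ± 81.2 TPM). Snrpn (445 ± 60.2 TPM) was next below it. Peg3, a zinc finger gene (50.5 TPM), and Grb10, a growth factor receptor adaptor gene (50.2 TPM), were close to Dlk1. Of the 30 other imprinted genes, 26 were detected in both libraries and 23 had the level required for a call. Of these 23, 0 were called different between the embryos. Of all genes tested, 0.146% were called higher in replicate 2 and 0.164% lower.

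**Figure D5:**
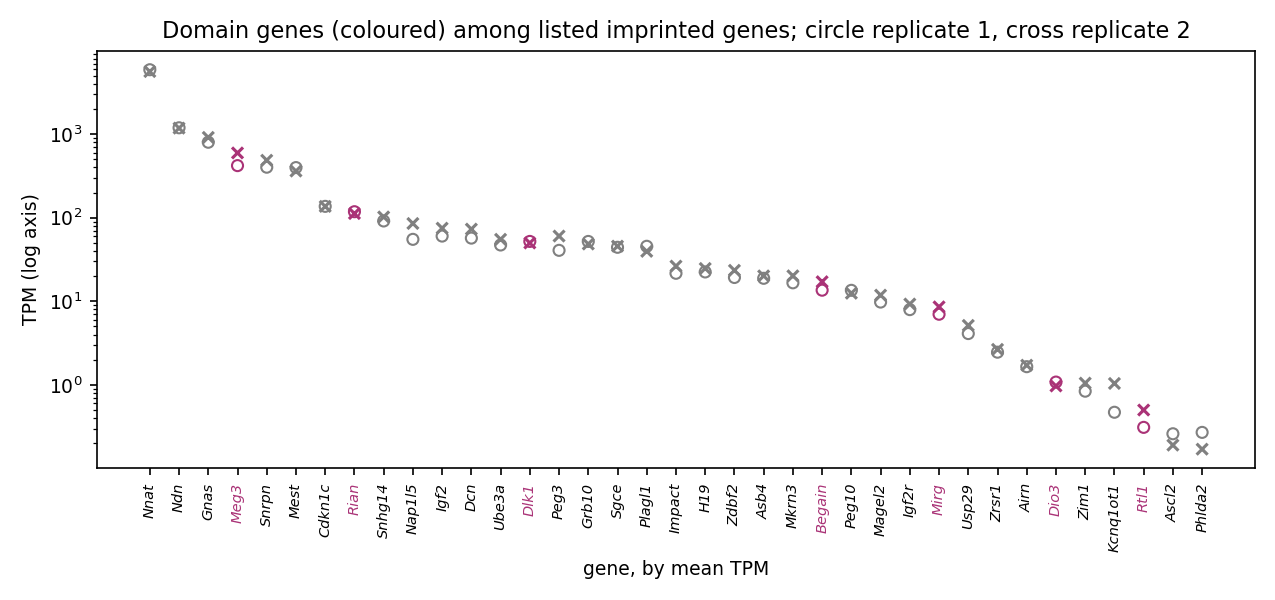
Level in TPM (log axis) of 37 imprinted genes ordered by mean, with the 7 domain genes in purple, circles for replicate 1 and crosses for replicate 2. Nnat leads at 5903 and 5614 TPM, Meg3 is rank 4, and Dio3 and Rtl1 are among the lowest at ranks 32 and 35.

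Of 14 listed genes for the control of the imprint, 13 were detected in both libraries. Dppa3, a protector of the maternal genome in the egg, had no read. Of all 21474 protein-coding genes, 13070 had a mean of 1 TPM or more. Trim28, the corepressor of KRAB zinc finger proteins, was at 271 and 230 TPM, lower in replicate 2 with intervals apart. Zfp57, the zinc finger protein that binds methylated imprint control regions, was at 166 and 229 TPM, higher in replicate 2 with intervals apart. Setdb1, at 35.1 and 41.6 TPM, was also higher with intervals apart. At any fold, intervals lay apart with the higher level in replicate 2 for 37.5% of all genes tested. They lay apart with the lower level for 8.46%. Ctcf, the insulator protein, was at 83.9 TPM. All 10 genes of Polycomb repressive complex 2, which has been studied as a partner of Meg3 RNA, were detected, with Ezh2, the methyltransferase, at 97.7 TPM. The level required for a call was reached by 12 of the 14 imprint control genes and 9 of the 10 Polycomb genes, and 0 were called different between the embryos.

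Genes listed for the pathways of the coding genes were mostly detected too, to be read beside the number of protein-coding genes given above. Of 13 Notch pathway genes 13 were at 1 TPM or more, led by the target gene Hes5 (66.8 TPM), with the receptor gene Notch1 at 26.0 TPM and the ligand gene Dll1 at 22.5 TPM. Dlk1, at 51.0 TPM, was thus above Notch1 and Dll1 in level. Of 16 genes of thyroid hormone handling 12 were detected, led by the carrier gene Ttr (771 TPM) and the receptor gene Thra (153 TPM), against 1.03 TPM for Dio3. All 7 genes that build selenoproteins, the class to which the Dio3 enzyme belongs, were detected, with Sephs1 at 78.5 TPM. Of 11 gag-derived genes like Rtl1, 8 were detected, led by Rtl8a (131 TPM). All 13 postsynaptic scaffold genes were detected, led by Dlgap4 (273 TPM), with Dlg4, which encodes the partner of Begain, at 17.4 TPM. One of these, Dlgap2, was called higher in replicate 2 (3.42 and 7.85 TPM), and none of the others in these 5 lists was called. The level required for a call was reached by 8 Notch, 9 thyroid hormone, 7 selenoprotein, 6 gag-derived and 10 scaffold genes.

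Markers of the labelled tissue were present. All 8 neuron markers and all 8 radial glia markers were detected, with summed levels of 3265 and 3921 TPM and of 2106 and 2107 TPM in replicates 1 and 2. Pituitary, a tissue rich in Dlk1 and Meg3, left little trace. Of 8 pituitary markers 1, Pomc, was detected (10.5 and 6.63 TPM), and Prl, Gh and Pou1f1 had no read in either library. Of 6 skeletal muscle markers 1 was detected, with sums of 4.10 and 3.57 TPM.

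Meninges and fibroblast markers were present at 8 of 8, with sums of 251 and 347 TPM, and Col1a1 was called higher in replicate 2 (17.1 and 35.5 TPM). Choroid plexus markers were detected at 5 of 6 (823 and 835 TPM), endothelium markers at 8 of 8 (162 and 184 TPM) and red blood cell markers at 9 of 9 (11879 and 14117 TPM). Of the red blood cell genes, the embryonic globins Hbb-y (529 and 123 TPM) and Hba-x (69.7 and 28.4 TPM) were called lower in replicate 2. The sums for neurons, meninges, endothelium and red blood cells were higher in replicate 2, as Meg3 and Begain were. So were 71.7% of all genes with a mean of 1 TPM or more. The sums for choroid plexus and radial glia were nearly equal in the embryos, and those for pituitary and skeletal muscle were lower in replicate 2. The part of these cell types in the Meg3 and Begain differences was not tested.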

How the data were processed

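Total RNA over 200 bases from 2 forebrains was sequenced, with 10 ng of RNA per library, per the labels. The authors deposited, per the file headers, expected counts (estimated reads, not whole), TPM and FPKM (per length and depth), bounds of an interval for each TPM, in the unit of the TPM signal and of unstated level, and each transcript's percent share of its gene. The notes with the files name assembly mm10 and GENCODE M4. Aligner, quantification software and strand setting are not given in the sources used here. The libraries held 35310017 and 29250404 expected counts.

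GENCODE M21 (GRCm38) supplied names, types and coordinates by ID without version, which matched 42462 of 43346 genes (98.0%). Sequences came from RefSeq tables (GRCm38.p6), which had promoter windows for 6 of the 7 genes. Levels are means ± SD of TPM. Log2 ratios use a pseudocount of 1, and detection means 1 TPM in both libraries. TMM factors came from edgeR 4.0.16 on rounded expected counts. Other work used Python 3.11.15 and pandas 2.3.3. Named genes were the 7 genes, the 4 highest of each list and those without a read, the 2 nearest in level on each side, and genes inside the domain with a mean expected count of 10 or more. Degs2, Ppp2r5c, Peg3, Grb10, Dlgap2 and the other called list members were named after their values were seen. The members were found by name alone, but this set of names and the lists were chosen with earlier results of these data known. Rtl1as, Dio3os, Gm2922 and Peg13 were not analysed here. Some list members are not reported here by name, but the counts and sums include them.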

Additional observations from a re-analysis of the deposited data

How the results depend on the processing

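The 5 of 7 genes detected became 7 at 0.1 TPM, stayed 5 at 5 TPM, and were 5 and 6 with 1 library left out in turn. The order by TPM separated 21 pairs in each library alone. The count of all genes called higher in replicate 2, 16, was 3 after TMM scaling, 30 with a pseudocount of 0.1, 36 at a mean TPM of 1 or more, 39 with no filter on the level and 9 on posterior mean TPM, and the cause was not tested. With no fold required, a setting chosen after seeing the data, 4107 genes were higher, 927 lower and 2 of the 7 genes differed, against 0 in each planned setting. The mean log2 ratio of the non-coding to the coding sum was 1.23 without Meg3, because 1 gene holds most of the sum, and 3.35 to 3.80 with 1 library left out. Rescaling to nuclear protein-coding and long non-coding genes raised 5 of the 7 levels by more than their SD, with the order kept, since the same factor applies to every gene of a library. Leaving out a library could not be done for differences between the embryos. No paired analysis was possible because there is 1 group. Depth limits Dio3 and Rtl1, at 32 to 55 expected counts, and the minor models of Mirg and Dlk1.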
